A study of Mus musculus with 3 samples.

Results

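The genes described here are 10 transcriptional regulators of mitochondrial and fatty acid metabolism, measured on Illumina bead arrays in mouse cardiomyocyte preparations of 3 ages. They include the peroxisome proliferator-activated receptors Ppara, Ppard and Pparg and the estrogen-related receptors Esrra, Esrrb and Esrrg. The others are the coactivators Ppargc1a (PGC-1α) and Ppargc1b (PGC-1β), the mitochondrial DNA factor Tfam and the nuclear transcription factor Nrf1. A probe was assigned to a gene where the array's own gene name matched the symbol, ignoring case, or else where the probe's definition held the symbol. This gave 18 probes out of 46632, for 10 of the 20986 genes named on the array. The matching rule used no measured value.

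The preparations came from hearts of embryonic day 11 to 12, postnatal day 3 to 4 (neonatal) and adult mice of 10 weeks or more. All 3 carried eGFP with α-MHC, the myosin heavy chain made by Myh6, on the DBA background. Several hearts were pooled within each preparation after Liberase dissociation for FACS, with a gate not given in the sources used here. Each age had 1 array, so no difference below has a test, and comparisons that involve the same age share its array.

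The embryonic, neonatal and adult arrays detected 14066, 15355 and 14115 probes (30.2%, 32.9% and 30.3%), with median raw signals of 72.2, 77.6 and 57.3 read from a median of 37 beads. The cell type label was checked against 9 cardiomyocyte markers. All 9 were detected in the embryonic and neonatal arrays and 6 in the adult array, which did not detect Myh6 itself, Mybpc3 for cardiac myosin-binding protein C or the heart transcription factor gene Nkx2-5. Summed raw signals of these markers were 136134, 73046 and 2498 in the embryonic, neonatal and adult arrays. Markers of fibroblasts, macrophages and endothelial cells had their lowest summed signals in the embryonic array. The arrays detected 3, 7 and 7 of 8 fibroblast markers in the same order of age, with summed signals of 1030, 102145 and 63209. They detected 2, 8 and 8 of 8 macrophage markers, with sums of 1148, 12883 and 17083. Of 6 endothelial markers, 2, 5 and 4 were detected (sums of 609, 7137 and 3011). Red cell precursor markers were detected for 5, 1 and 0 of 6 (32250, 413 and 307), and adipocyte markers for 1, 1 and 0 of 8 (620, 707 and 464). The red cell set holds the embryonic globin genes Hbb-y, Hba-x and Hbb-bh1, at 10774.9, 10102.8 and 9768.3 in the embryonic array. Its sums cannot tell a change of globin type from fewer red cells. Slc4a1, which is no globin gene, had raw signals of 1364.3, 127.2 and 58.7 in the same order of age. Cardiomyocyte marker signal was thus lowest in the array labelled adult, and the part of these shifts in the differences below was not tested. In such mixed RNA, fewer cells of a type and less RNA per cell cannot be told apart.

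**Figure D1:**
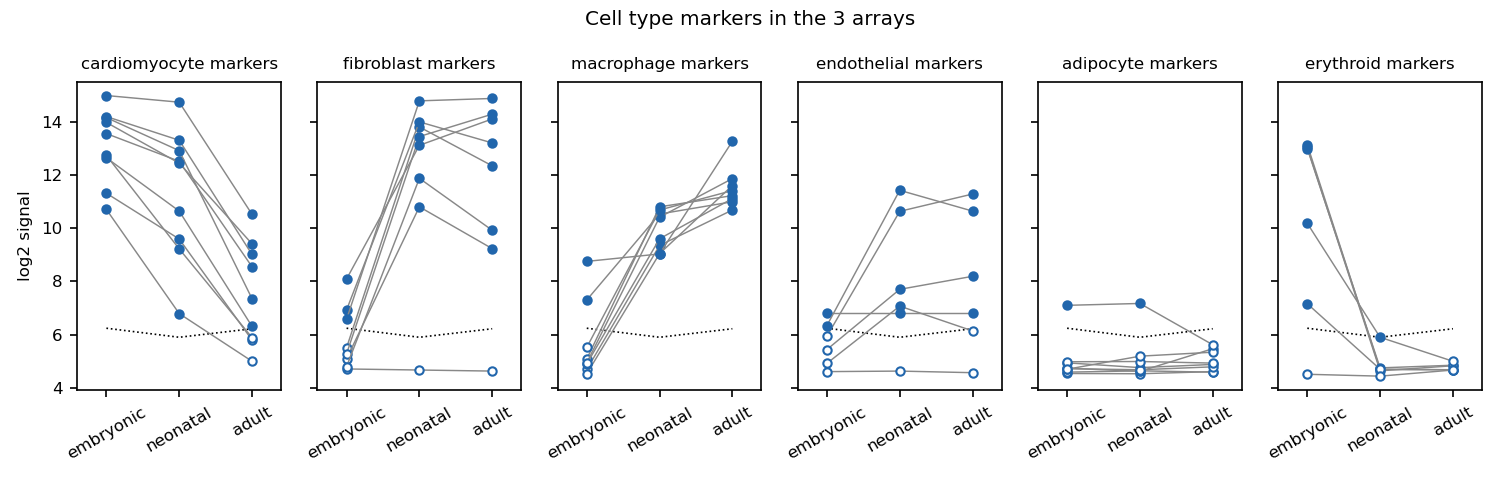
Log2 normalized signal of each marker gene in the embryonic, neonatal and adult arrays, in a panel per cell type. Filled points were detected, open points were not, and the dotted line is the lowest log2 value among detected probes of each array (6.24, 5.90 and 6.22). Cardiomyocyte markers descend across the ages, most fibroblast and macrophage markers are high in the neonatal and adult arrays, and most adipocyte markers are near the bottom throughout.

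The PPARs are nuclear receptors that bind fatty acids and their derivatives and act on DNA as heterodimers with retinoid X receptors, mainly at genes of fatty acid uptake, storage and oxidation. The ERRs are orphan receptors that bind related DNA elements without a known natural ligand, and with the PGC-1 coactivators, which do not bind DNA themselves, they drive genes of the respiratory chain and citric acid cycle. NRF1 and GABP act on Tfam and other genes for the upkeep of mitochondrial DNA, and in the heart the whole network is known for the turn to fatty acid oxidation after birth.

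The sequences before the transcription start of Ppargc1a, Esrra and Tfam are shown because these genes have a single listed start and stand for the coactivator, receptor and mitochondrial branches, all lower in the adult than in the embryonic array. RefSeq sequences of build GRCm38.p6 matched 9 of the 10 genes, with 16 windows of 250 bases. All 3 are printed 5′ to 3′ on the minus strand, the strand of each gene, and end at the base before the start.
Ppargc1a, chr5:51567726-51567975, capitals mark the short cAMP response site TGACG read on the other strand: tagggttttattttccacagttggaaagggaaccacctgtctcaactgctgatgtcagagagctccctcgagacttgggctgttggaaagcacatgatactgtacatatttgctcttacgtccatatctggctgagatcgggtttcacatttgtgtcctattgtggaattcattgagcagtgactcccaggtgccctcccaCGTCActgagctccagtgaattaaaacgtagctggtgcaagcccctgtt
Esrra, chr19:6921809-6922058, capitals mark GC boxes (GGGCGG) read on the other strand: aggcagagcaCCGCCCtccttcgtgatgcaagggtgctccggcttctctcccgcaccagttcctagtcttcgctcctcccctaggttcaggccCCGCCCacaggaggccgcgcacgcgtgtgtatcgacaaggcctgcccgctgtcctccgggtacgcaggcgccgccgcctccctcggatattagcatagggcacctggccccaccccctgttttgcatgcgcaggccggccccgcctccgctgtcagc
Tfam, chr10:71238045-71238294, capitals mark GC boxes and, nearest to the start, the GABP motif CCGGAAG: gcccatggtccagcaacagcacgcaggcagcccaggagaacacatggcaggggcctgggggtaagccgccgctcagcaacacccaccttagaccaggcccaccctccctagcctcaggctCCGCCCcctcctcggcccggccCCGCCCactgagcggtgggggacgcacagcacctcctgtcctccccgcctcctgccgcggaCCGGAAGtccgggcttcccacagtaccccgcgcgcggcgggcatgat

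The windows differed in base composition. Guanine and cytosine made up 72.0% of the Tfam window, 68.4% of the Esrra window and 48.0% of the Ppargc1a window, against a median of 52.4% (quartiles 45.2% and 61.2%) over all 32851 windows of 27025 genes. Motifs were searched as exact letters on both strands. The GABP motif in the Tfam window began 47 bases before the start and was the only match among the 16 windows of the regulators, against 6.91% of all windows. Of 15 genes for mitochondrial DNA upkeep and GABP with a window, 8 held it, among them Gabpa, Polrmt, Polg and Twnk, against 7.83% of all genes. The TGACG site in the Ppargc1a window began 49 bases before the start. It also occurred in windows of Esrrb and Ppara, making 3 of 16, against 17.8% of all windows, while the full element TGACGTCA, which holds it, was in 0 of 16 and 1.55% of all.

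The ERR element TNAAGGTCA was in 0 of the 16 windows and 1.14% of all, and in 2 of 24 ERR target genes with a window, Atp5g3 and Ndufb4. The PPAR element, a direct repeat of AGGTCA with 1 base between the copies, shares AGGTCA with it and was in 0 of 16 and 0.0335% of all. The NRF1 motif, GCGCA and GCGC with 1 base between them, was in 1 window, that of Ppara, against 3.74% of all, and the GC box was in 9 of 16 against 32.7%. These matches describe letters in the windows and say nothing of binding.

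Values are given as raw probe signal and as log2 signal after background correction and quantile normalization, which lifts the dim adult array to the distribution of the other two. A probe counted as detected at a detection p below 0.01. A gene was called where log2 values differed by at least 1, that is 2-fold, and at least 1 array of the pair detected it. Where an array did not detect the gene, its side was set to the lowest detected log2 value of that array, if higher, and the fold is a lower bound. Where that left no fold, the gene entered list medians as 0.00. The value after ± is the standard error over beads within the arrays, which leaves out the spread between animals and preparations.

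**Figure D2:**
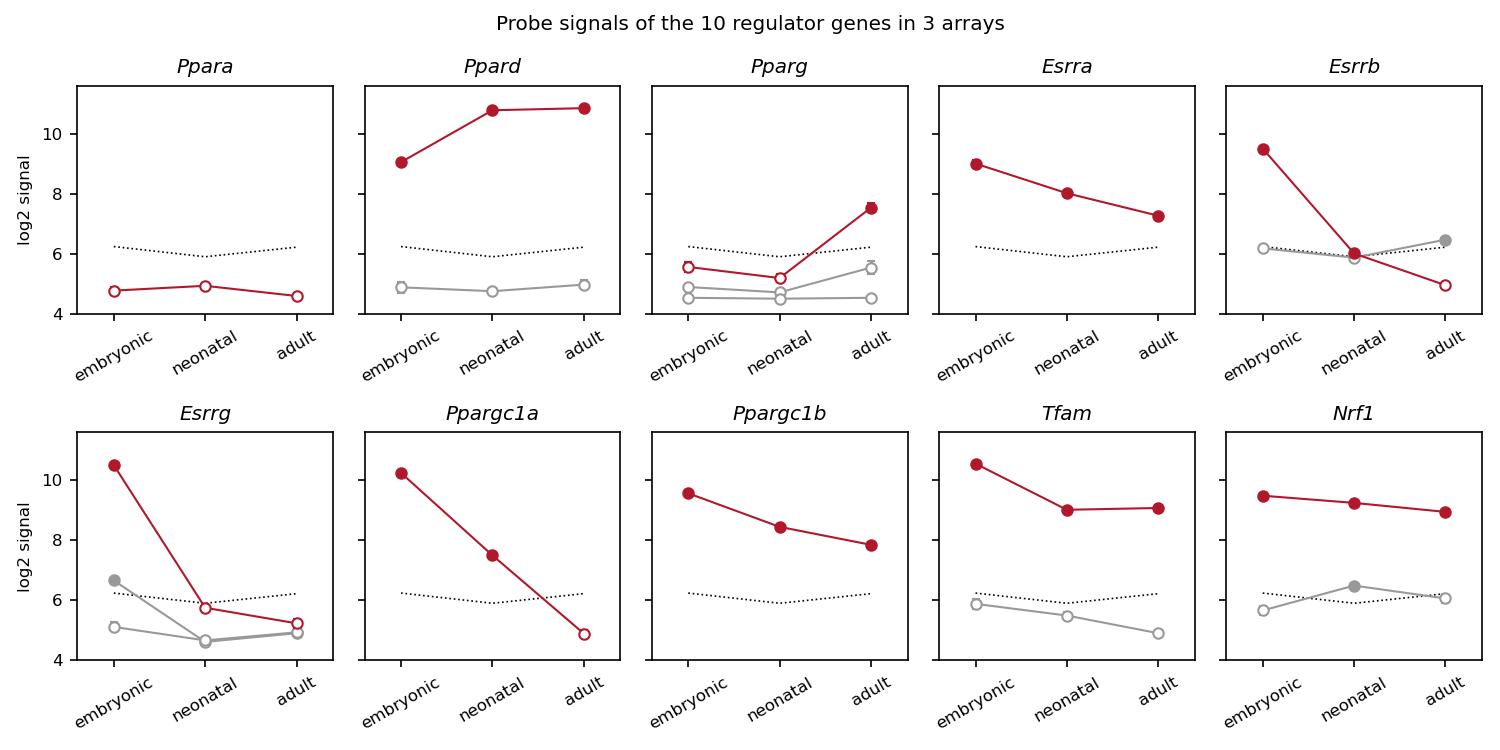
Log2 normalized signal of every probe of the 10 regulators in the embryonic, neonatal and adult arrays, a panel per gene. Red marks the brightest probe, which stands for the gene, and grey the other probes; filled points were detected, open points were not, bars are bead standard errors, and the dotted line is the lowest detected log2 value of each array. Esrrb, Esrrg and Ppargc1a descend to the undetected range, Ppard is higher from the neonatal array on, and Pparg is detected in the adult array alone.

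Among the coactivators, Ppargc1a descended to the undetected range. PGC-1α, its product, is the inducible coactivator through which cold, exercise and fasting act on mitochondrial genes. Its probe gave raw signals of 1427.8, 301.1 and 55.4 in the embryonic, neonatal and adult arrays, or log2 10.25, 7.50 and 4.89, and the adult array did not detect it. It was 6.71-fold lower in the neonatal than in the embryonic array (log2 difference -2.75 ± 0.09). In the adult array it was at least 2.43-fold lower than in the neonatal array and at least 16.3-fold lower than in the embryonic array. Between the neonatal and embryonic arrays, 1.44% of 10571 measured genes had a lower difference than Ppargc1a. The call for adult against neonatal was lost without background correction (-0.85) and with an offset of 50 (-0.99).

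Ppargc1b encodes PGC-1β, the relative of PGC-1α that maintains basal mitochondrial function. Its raw signals were 900.2, 538.8 and 189.2 in the embryonic, neonatal and adult arrays, or log2 9.57, 8.45 and 7.85, all detected. It was 2.18-fold lower in the neonatal than in the embryonic array (-1.13 ± 0.10), a call lost with median centring (-0.96), and 3.30-fold lower in the adult than in the embryonic array (-1.72 ± 0.11). The adult and neonatal arrays were less than 2-fold apart (-0.60 ± 0.10). Both coactivators were thus highest in the embryonic and lowest in the adult array, Ppargc1a with a wider span. Another family member, Pprc1 for the PGC-1-related coactivator, had log2 values of 9.01, 8.44 and 8.68, within 2-fold in every pair.

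Among the estrogen-related receptors, all 3 genes had their highest signal in the embryonic array. Esrrg encodes ERRγ, the receptor that in mouse heart is known to support oxidative metabolism around birth. Its brightest probe gave raw signals of 1709.5, 118.2 and 65.0 in the embryonic, neonatal and adult arrays, or log2 10.51, 5.75 and 5.23, and the embryonic array alone detected it. It was at least 24.3-fold lower in the neonatal and at least 19.5-fold lower in the adult array than in the embryonic array. Of 10571 genes measured between the neonatal and embryonic arrays, 11 had a lower difference. A second Esrrg probe, at 148.0, 55.9 and 55.6, was also detected in the embryonic array alone, and the neonatal array was at least 1.69-fold lower. Another probe, at 77.9, 59.0 and 56.6, was detected in none. Both detected probes were thus highest in the embryonic array, with very different sizes. The neonatal difference was -1.52 with the mean over probes and -3.66 without background correction, and the adult difference against the embryonic array -1.21 and -3.50.

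Esrrb encodes ERRβ, known for its roles in the placenta and in embryonic stem cells. Its raw signals were 861.8, 134.4 and 57.2, or log2 9.51, 6.01 and 4.95, and the adult array did not detect it. It was 11.2-fold lower in the neonatal than in the embryonic array (-3.49 ± 0.11) and at least 9.76-fold lower in the adult than in the embryonic array. The neonatal signal lay just inside the detection threshold, so no fold could be given for adult against neonatal. A second probe, from a RIKEN clone, did not show this pattern. Its raw signals were 118.3, 125.3 and 100.7, or log2 6.18, 5.87 and 6.47, all near the detection threshold, and the adult array alone detected it. The neonatal difference was -1.90 with the mean over probes and -2.66 without background correction, and the adult difference against the embryonic array -2.13 and -2.55.

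Esrra encodes ERRα, the most widely expressed of the family and a main partner of PGC-1α. Its raw signals were 618.1, 416.1 and 144.0, or log2 9.01, 8.02 and 7.27, detected in all arrays. The neonatal array was lower than the embryonic by -0.99 ± 0.14, just short of 2-fold, and the adult array was lower than the neonatal by -0.75 ± 0.12. Across the whole span the adult array was 3.33-fold lower than the embryonic array (-1.74 ± 0.15). Esrra thus spanned less than Esrrb or Esrrg and, of the 3 receptor genes, was the only one that the adult array still detected by its brightest probe.

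Among the PPARs, the 3 genes gave 3 different patterns. Ppard encodes PPARβ/δ, expressed in many tissues and active in fatty acid oxidation of heart and skeletal muscle. Its brightest probe had raw signals of 638.5, 2582.6 and 1158.1 in the embryonic, neonatal and adult arrays, or log2 9.06, 10.79 and 10.86. It was 3.32-fold higher in the neonatal than in the embryonic array (1.73 ± 0.06) and 3.50-fold higher in the adult than in the embryonic array (1.81 ± 0.07). It was the only one of the 8 measured genes that was higher in the neonatal than in the embryonic array. The adult and neonatal arrays were 0.07 ± 0.07 apart after quantile normalization and -0.81 apart with median centring. A second probe, at 69.5, 65.1 and 57.7, was not detected in any array, and averaging both probes brought the neonatal difference to 0.80 and the adult difference to 0.95, under 2-fold.

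Pparg encodes PPARγ, the regulator of adipocyte formation, which is also expressed in macrophages. Its brightest probe gave raw signals of 92.3, 89.8 and 163.2, or log2 5.56, 5.19 and 7.54, and was detected in the adult array alone. It was at least 3.10-fold higher in the adult than in the neonatal array and at least 2.46-fold higher than in the embryonic array. Both other probes, at 69.7, 62.7 and 73.1 and at 49.1, 45.6 and 38.5, were not detected in any array, so the adult signal rests on 1 probe of 3, and the mean over probes gave a difference of 0.00 in both pairs. Of the 8 adipocyte markers, the adult array detected 0, and Cidea alone was detected in the embryonic and neonatal arrays. Macrophage markers had their highest summed raw signal in the adult array, where the marker Lyz2 had 6145.3 against 792.0 in the neonatal array. Raw signals of Cd68, Adgre1 and Mrc1 were lower in the adult than in the neonatal array, and those of the other macrophage markers were higher. After normalization, which allows for the dimmer adult array, Cd68, Adgre1 and Mrc1 were higher there by less than 2-fold (0.46, 0.42 and 0.73). The other 5 markers were at least 2-fold higher. The part of macrophages in the Pparg signal was not tested.

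Ppara encodes PPARα, the main fatty acid-sensing receptor of heart and liver. Its only probe gave 64.6, 76.2 and 42.1, or log2 4.77, 4.93 and 4.59, and was detected in none of the arrays. No fold was computed for it.

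In the mitochondrial branch, Tfam encodes the protein that packages mitochondrial DNA and starts its transcription. Its brightest probe had raw signals of 1788.1, 786.5 and 376.3 in the embryonic, neonatal and adult arrays, or log2 10.56, 9.02 and 9.08. It was 2.92-fold lower in the neonatal than in the embryonic array (-1.55 ± 0.09) and 2.80-fold lower in the adult than in the embryonic array (-1.48 ± 0.10). The adult and neonatal arrays were 0.06 ± 0.10 apart, less than the bead error, and -0.75 apart with median centring. A second probe at 104.4, 104.6 and 55.6 was not detected. Averaging both probes brought the neonatal difference to -0.97, under 2-fold.

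Nrf1 here is nuclear respiratory factor 1, an activator of Tfam and respiratory chain genes, not the stress factor Nfe2l1 that shares the abbreviation. Its brightest probe had raw signals of 855.9, 923.8 and 348.7, or log2 9.49, 9.25 and 8.95, all detected. It was less than 2-fold apart in every pair (-0.24 ± 0.07 in neonatal against embryonic, -0.30 ± 0.08 in adult against neonatal, -0.54 ± 0.07 in adult against embryonic). A second probe, from a RIKEN clone, gave 95.5, 171.0 and 86.8 and was detected in the neonatal array alone. The mean over both probes turned the neonatal difference to 0.30.

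Counted over the list, neonatal against embryonic had 8 of the 10 genes measured, 1 higher and 5 lower, with a median log2 difference of -1.34. Over all 10571 measured genes, 34.4% were called, 17.5% higher and 16.9% lower, with a median of -0.04. The lower genes were Esrrb, Esrrg, Ppargc1a, Ppargc1b and Tfam.

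For adult against neonatal, 8 genes were detected in at least 1 array and 7 had a fold. Pparg was the 1 higher and Ppargc1a the 1 lower. The median was -0.15 with Esrrb, which had no fold, at 0.00, -0.30 over the 7 genes with a fold, and -0.45 with undetected sides at their own value. Over all 10415 measured genes 21.4% were called, 10.9% higher and 10.5% lower, with a median of -0.06, so the members' count was close to the background.

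For adult against embryonic, 9 genes were measured, 2 higher and 6 lower, with a median of -1.72. The background was 43.9% called, 21.3% higher and 22.7% lower, among 10553 genes, with a median of -0.14. Of the 6 lower genes, Esrra alone was not also called lower in neonatal against embryonic. Cardiomyocyte markers had median differences of -1.53 in neonatal against embryonic, -3.96 in adult against neonatal and -5.09 in adult against embryonic, and their part in the members' differences was not tested.

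**Figure D3:**
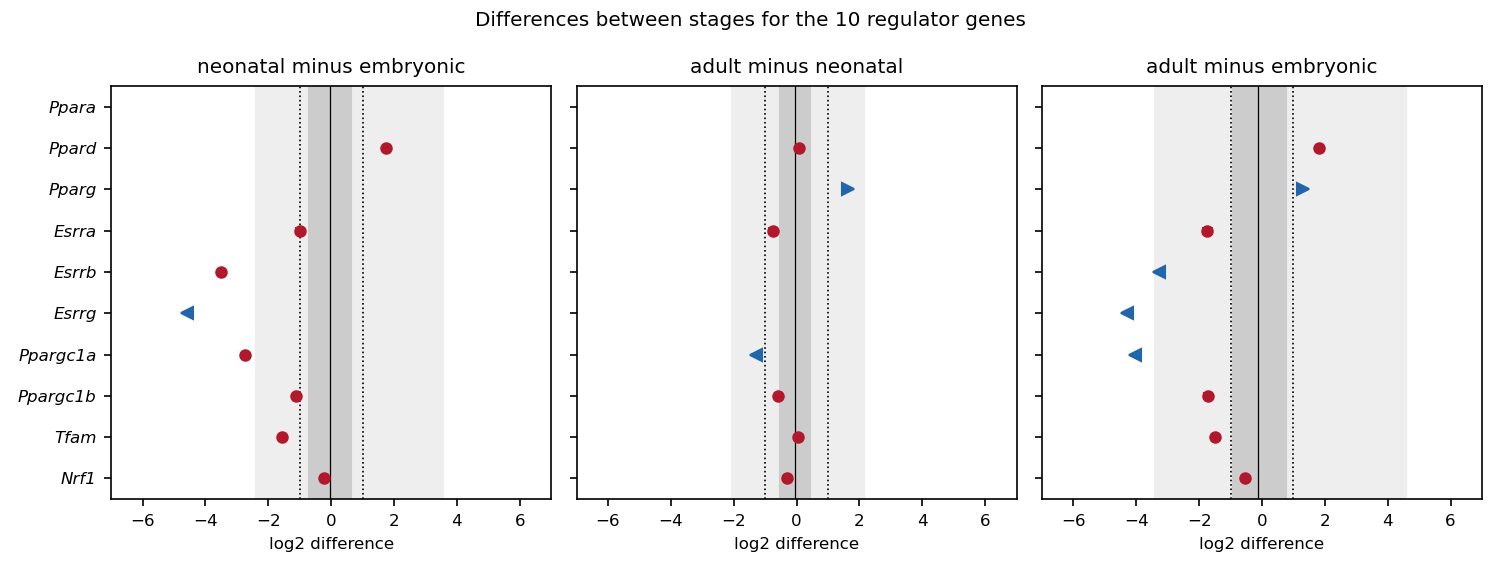
Log2 difference of each regulator for the 3 pairs of arrays. Red points are measured differences with bead standard errors, blue triangles are bounds that point towards the possible larger difference, dotted lines mark 2-fold, and grey bands hold the central 50% and 95% of all measured genes around the thin line at their median. Ppara was not detected and has no point, nor has Pparg in the first panel, Esrrb and Esrrg in the second; 5 genes lie beyond the lower 2-fold line in the first panel, 1 in the second and 6 in the third.

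The authors' deposited table gave ratios of the same probes from their own processed values. In the authors' deposited table, Ppargc1a had a ratio of 0.00931 for adult over embryonic and 0.061 for adult over neonatal. Esrrg stood at 0.0188 and Esrrb at 0.0198 for adult over embryonic in the authors' deposited table, without the floor that makes these differences bounds above. The authors' deposited table had Ppard at 3.44 and 1.05, Pparg at 4.57 and 7.38, and Nrf1 at 0.691 and 0.814 for adult over embryonic and adult over neonatal. For Esrra it was 0.305 and 0.601, for Ppargc1b 0.307 and 0.658, and for Tfam 0.358 and 1.04 in the authors' deposited table. Directions were those of the normalized raw signals for these 9 probes, each the brightest of its gene, with Ppard and Tfam near 1 between adult and neonatal. The undetected second probes of Ppard and Tfam stood at 5.66 and 0.3 for adult over neonatal in the authors' deposited table. The ratios of Ppara in the authors' deposited table were negative and cannot be read as folds. The same holds for the dimmer Esrrg probes in adult over neonatal.

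The 3 members with the widest range of log2 values, undetected values included, were Ppargc1a (5.36), Esrrg (5.28) and Esrrb (4.56). With undetected values at the floor their widest differences were 4.03, 4.60 and 3.49 in size, so the order among them rests on values below detection. They were set against 10932 genes detected in at least 1 array, by the Euclidean distance of log2 values centred on each gene's mean over the 3 arrays. The nearest to Ppargc1a were Klhl30 at a distance of 0.042, the cell polarity gene Llgl2 at 0.052 and Rrm2, for a subunit of ribonucleotide reductase, at 0.12. For Esrrg they were the kinase gene Alpk2 at 0.072, the glycogenin gene Gyg at 0.12 and the scaffold gene Homer2 at 0.23, and all 3 arrays detected Gyg and Homer2. For Esrrb they were Pcbd1 at 0.062 and, at 0.1 each, 2610318N02Rik and Rgs9bp. With 3 arrays many genes lie close to any pattern, and 7 of these 9 genes were below detection in the adult array, as the member itself was.

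For this and the lists that follow, the shares over all measured genes were 17.5% higher and 16.9% lower in neonatal against embryonic. They were 10.9% and 10.5% in adult against neonatal, and 21.3% and 22.7% in adult against embryonic. The partners and coregulators of these receptors differed little as a group. Of 18 genes on the array, 15 were measured in neonatal against embryonic, 1 higher and 1 lower, with a median of 0.00 (-0.12 over genes detected in both arrays). Nrip1, for the corepressor RIP140, was the higher one (1.09 ± 0.13, log2 7.91 in the neonatal and 6.82 in the embryonic array). Prdm16, a coregulator best known from brown fat, was the lower one (-2.09 ± 0.12). In adult against neonatal 15 were measured, 1 higher and 2 lower, with a median of 0.00 (0.14 over genes detected in both arrays). Ncoa3, a steroid receptor coactivator gene, was higher by 1.00 ± 0.20, the acetyltransferase gene Crebbp was lower (-1.47 ± 0.12), and Perm1, for a muscle regulator induced by PGC-1 and ERR, was at least 3.34-fold lower. The Ncoa3 call was lost with median centring (0.42), with an offset of 50 (0.77), without background correction (0.65), with the authors' processed values (0.88) and with the mean over probes (0.49), and the Crebbp call with the mean over probes (-0.79). In adult against embryonic, 13 were measured, 2 higher and 1 lower, with a median of -0.09. Nrip1 was higher by 1.02 ± 0.14, and Prdm16 was at least 4.82-fold lower. The Nrip1 calls were lost with an offset of 50 (0.90 in the neonatal and 0.84 in the adult comparison with the embryonic array), without background correction (0.80 and 0.74) and with the authors' processed values (0.95 and 0.89), and the adult one also with median centring (0.65) and the mean over probes (0.96). The adult Prdm16 call was lost with the mean over probes (-0.26). Of the retinoid X receptors that pair with the PPARs, Rxrb was detected throughout, at log2 10.91, 11.19 and 10.26 in the embryonic, neonatal and adult arrays, Rxra in the neonatal array alone and Rxrg in none.

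Genes that act upstream of PGC-1α were measured for 11, 10 and 11 of 13 on the array in neonatal against embryonic, adult against neonatal and adult against embryonic. Prkaa2, for the α2 catalytic subunit of AMP-activated kinase, was the 1 lower gene in each pair. Its raw signals were 1380.2, 273.3 and 70.5 in the embryonic, neonatal and adult arrays, the adult one not detected. It was lower by -2.87 ± 0.09 in neonatal against embryonic, at least 2.16-fold lower in adult against neonatal and at least 15.8-fold lower in adult against embryonic. The call in adult against neonatal was lost with an offset of 50 (-0.85), without background correction (-0.72), with the authors' processed values (-0.96) and with the mean over probes (-0.27). Higher genes occurred in adult against embryonic alone, where Foxo1, for a factor that acts on Ppargc1a in fasted liver, was higher by 1.58 ± 0.12 and Thra, for thyroid hormone receptor α, by 1.22 ± 0.08, the Thra call being lost with median centring (0.57). List medians were -0.06, 0.31 and -0.12 in the same order of pairs. Over genes detected in both arrays they were 0.07, 0.41 and 0.55, so the sign of the first and last depended on bounds. Sirt1, for the deacetylase that acts on PGC-1α, stood at log2 9.07, 8.20 and 8.67 in the embryonic, neonatal and adult arrays, within 2-fold in every pair.

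Genes for the upkeep of mitochondrial DNA and for GABP were lower or under 2-fold apart, with 0 higher in each pair. In neonatal against embryonic, 5 of 13 measured were lower, with a median of -0.64, among them Tfb1m, for a mitochondrial ribosomal RNA methyltransferase, at -1.88 ± 0.09 and Lonp1, for the matrix protease that degrades TFAM, at -1.72 ± 0.11. In adult against neonatal 1 of 12 was lower, near the 10.5% of all measured genes, and the median was -0.14. The lower gene was the mitochondrial topoisomerase gene Top1mt (-1.03 ± 0.19). That call was lost with an offset of 50 (-0.91), without background correction (-0.84) and with the authors' processed values (-0.92). In adult against embryonic 7 of 12 were lower, with a median of -1.08. The lowest there were Gabpa, for the DNA-binding subunit of GABP (-1.81 ± 0.17), and Tfb1m (-1.81 ± 0.11), and the Gabpa call was lost with the mean over probes (-0.70). Like Tfam itself, Tfb1m had nearly the same log2 value in the adult and neonatal arrays, 7.99 and 7.93.

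PPAR target genes of fatty acid handling went both ways, with more genes lower than higher in both comparisons with the embryonic array. In neonatal against embryonic, 2 of 21 measured were higher and 8 lower, with a median of -0.34. Over all measured genes 17.5% were higher and 16.9% lower. Angptl4, for an inhibitor of lipoprotein lipase, was higher by 3.48 ± 0.09. Acadl, for long-chain acyl-CoA dehydrogenase, was lower by -3.10 ± 0.11, and Cpt1b, for the muscle enzyme that commits fatty acids to mitochondrial oxidation, by -2.56 ± 0.07.

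In adult against neonatal, 1 of 20 PPAR targets was higher and 2 lower, with a median of -0.06. Over all measured genes 10.9% were higher and 10.5% lower, with the same median, so the list did not stand out in this pair. Cpt1b was at least 11.9-fold lower and Fabp3, the heart fatty acid-binding protein gene, was lower by -4.19 ± 0.13. In adult against embryonic 5 of 20 were higher and 9 lower, with a median of -0.84, against 21.3% and 22.7% of all measured genes. Angptl4 was higher by 3.36 ± 0.12, while Cpt1b was at least 70.2-fold lower and Fabp3 lower by -4.53 ± 0.08. Raw signals of Cpt1b were 6140.8, 1315.1 and 88.5 in the embryonic, neonatal and adult arrays. The named genes that were lower are enzymes and carriers of fatty acid oxidation, whereas Angptl4 encodes a secreted inhibitor.

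ERR target genes of oxidative metabolism were the most one-sided of the lists. Over all measured genes, 16.9% were lower in neonatal against embryonic, 10.5% in adult against neonatal and 22.7% in adult against embryonic. In neonatal against embryonic 16 of 29 measured were lower and 0 higher, with a median of -1.32. Suclg1, for a subunit of succinyl-CoA ligase of the citric acid cycle, was lowest (-2.84 ± 0.07). In adult against neonatal 12 of 28 were lower and 0 higher, with a median of -0.77. The lowest were Cox6a2 (-3.63 ± 0.11) and Cox8b (-3.07 ± 0.12), both muscle forms of cytochrome oxidase subunits. In adult against embryonic 25 of 29 were lower and 0 higher, with a median of -1.92, and Cox6a2 (-4.98 ± 0.10) and the muscle subunit gene Cox7a1 (-3.62 ± 0.11) were lowest. Suclg1 differed by 0.54 between the adult and neonatal arrays, so the gene lowest in neonatal against embryonic was not among those lower in adult against neonatal. These muscle forms are made in cardiomyocytes, whose markers also had their lowest summed signal in the adult array, and the part of that shift was not tested.

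Transcripts made from mitochondrial DNA, which TFAM helps to transcribe, were mostly read from probes near the top of the scale. Of 9 on the array 8 were measured, with medians of -0.03 in neonatal against embryonic, 0.32 in adult against neonatal and 0.39 in adult against embryonic. The probes of mt-Nd1, mt-Nd4, mt-Co2, mt-Cytb and mt-Atp6 had raw signals between 19263.7 and 28984.4 on every array, where the brightest probes of the arrays reached 32349.0 to 39259.2, and a change in such bright signals may not be seen in full. The 3 dimmer transcripts were lower in neonatal against embryonic by less than 2-fold, mt-Nd4l at -0.74, mt-Nd5 at -0.77 and mt-Nd6 at -0.29. Only mt-Nd5, for a subunit of complex I, was called, higher in adult against neonatal (1.08 ± 0.12). Its raw signals were 184.1, 156.2 and 151.9 in the embryonic, neonatal and adult arrays. The call was lost with median centring (0.50), with an offset of 50 (0.83), without background correction (0.71) and with the authors' processed values (0.95).

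**Figure D4:**
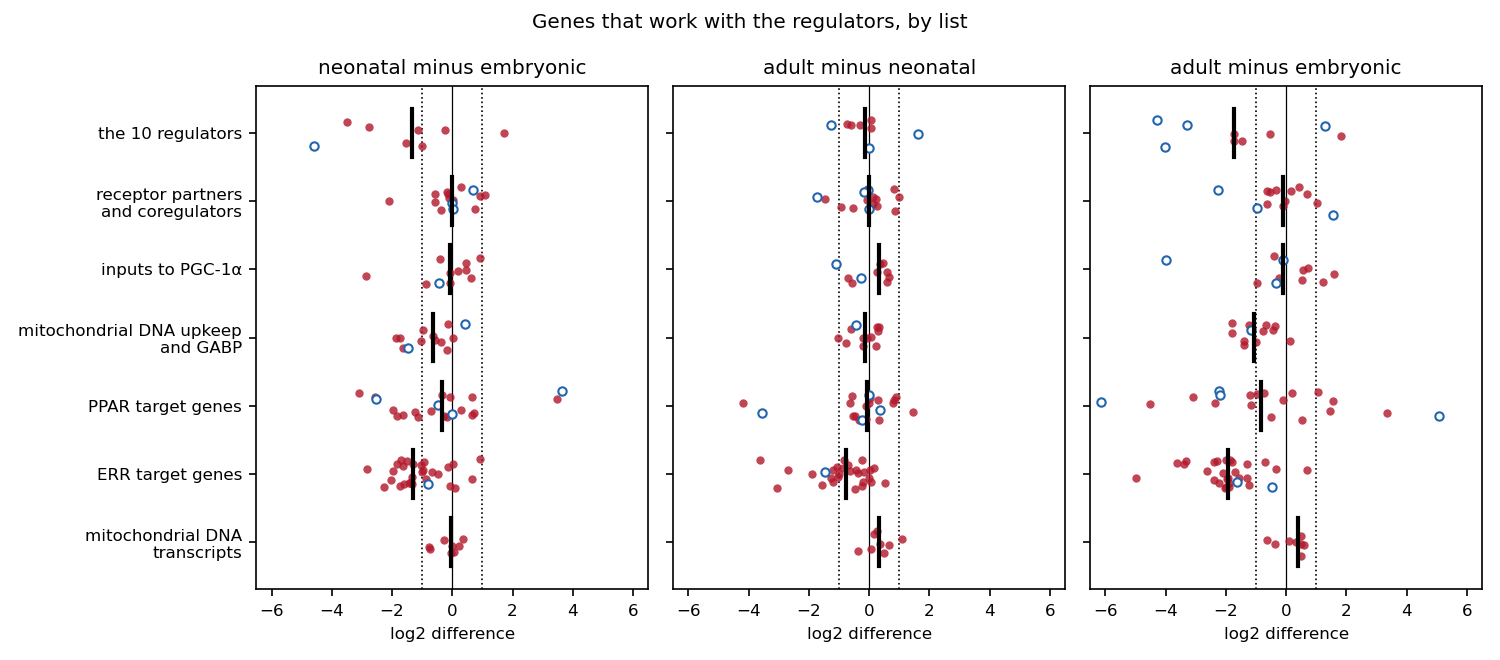
Log2 differences of the regulators and of 6 lists of genes that work with them, for the 3 pairs of arrays. Each point is a measured gene, filled for a measured difference and open for a bound, the black bar is the list's median and dotted lines mark 2-fold. ERR targets lie to the left in all 3 panels (medians -1.32, -0.77 and -1.92), PPAR targets spread both ways, and mitochondrial DNA transcripts, most of them near the top of the scale, have medians of -0.03, 0.32 and 0.39. A gene with no fold is drawn at 0.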

How the data were processed

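Biotin-labelled cRNA made from total RNA was hybridised, per the labels. Per the file headers, the authors deposited raw probe intensity with the standard deviation over beads, bead numbers and a detection score, a matrix of processed intensity, and a table of adult over embryonic and adult over neonatal ratios with their natural log. The adult column of the matrix was the raw intensity minus about 48.5, and the method for the other columns was not stated. The standard deviation divided by the square root of the bead number gave the bead standard error. The complement of the deposited detection score served as detection p. Raw intensity was background corrected (normal plus exponential model, offset 16), quantile normalized and taken to log2 with limma 3.58.1 in R 4.3.3, and analysed in Python 3.11.15 with pandas 2.3.3. Background correction and normalization were tested on arrays simulated from the embryonic array alone, with few probes changed. That setting held neither the brightness gap between the real arrays nor their large share of differing genes. Quantile normalization hides any shift common to all genes. Probes were named through RefSeq (11875 by accession, 22870 by symbol); 134 with conflicting names and 25 held in the processed matrix alone were left out, as was 1 undetected probe that the file names A830037N07RIK, a synonym of Ppargc1a. The brightest probe stood for a gene.

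The 10 members and the lists were chosen with earlier results of these data known, and the lists are no independent support. All probes of members are named. Of each other list the 2 highest and 2 lowest called genes of each pair are named, and for the 3 members of widest range the 3 nearest genes. Some genes that this rule names are not reported here. Others named (Pprc1, Sirt1, the retinoid X receptors, dim mitochondrial transcripts, marker genes) were picked for their role after values were seen. Of 131 list genes 124 were on the array, without Mef2a, Tfb2m, Hadha, mt-Nd3, mt-Co1, mt-Co3 and mt-Atp8. With 1 array of pooled RNA per age there was no test. Alternatives were median centring, no background correction, an offset of 50, the authors' processed values, other detection rules, the mean over probes, a 1.5-fold threshold and, chosen after seeing the data, undetected sides at their own value.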

Additional observations from a re-analysis of the deposited data

How the results depend on the processing

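No paired analysis was possible because each age had 1 array, and for the same reason no replicate could be left out; bead errors cover a single array and dim probes limit what can be ordered. No difference of a member and no list median was counted as reversed in 217 and 189 values under at most 9 alternatives. For members only a called difference could be so counted. The uncalled Nrf1 difference in neonatal against embryonic, which went from -0.24 to as high as 0.30, was not. Nor were the uncalled adult against neonatal differences of Ppard (0.07) and Tfam (0.06), which fell to -0.81 and -0.75 with median centring. Some list medians also changed sign without being counted as reversed. That of genes upstream of PGC-1α went from -0.12 to 0.55 in adult against embryonic over genes detected in both arrays. In neonatal against embryonic it went from -0.06 to 0.07. Other detection rules leave a difference between detected values unchanged, so part of the 217 member values could not move. The size of a member's difference moved by more than its confidence interval over beads in 76 of the 217, and the cause was not tested. Undetected sides at their own value was chosen after seeing the data. The members called in adult against neonatal, 2 in the report, were 5 with median centring (1 higher and 4 lower), 4 at 1.5-fold, 1 without background correction, 1 with an offset of 50, 1 with the mean over probes and 0 of 5 measured where both arrays had to detect the gene. That last rule, which leaves fewer genes, gave 4 members in adult against embryonic in place of 8. Over all genes, adult against neonatal gave 4486 called genes with median centring and 4464 at 1.5-fold in place of 2234, and neonatal against embryonic gave 5847 at 1.5-fold in place of 3639. Median centring moved the median of all measured genes to 0.10 in neonatal against embryonic, -0.79 in adult against neonatal and -0.62 in adult against embryonic. Higher genes then made up 61.3%, 9.9% and 28.2% of calls, against 50.8%, 51% and 48.4% after quantile normalization. Relative to that shift, the uncalled differences of Ppard (-0.81) and Tfam (-0.75) between adult and neonatal arrays lay near 0. The call of Pparg in adult against embryonic was lost without background correction (0.86), and that of Ppargc1b in neonatal against embryonic with median centring (-0.96).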
